A study of Mus musculus with 12 samples.

Results

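CD4+ T cells without Keap1 were followed from 24 to 48 h of activation by setting the 3 libraries of Keap1 knockout (KKO) cells at 48 h against the 3 at 24 h, across all genes. These 6 libraries were chosen by genotype and time from the 12 in the series, and no measured value entered the choice. The other 6 are wild-type (WT) cells, 3 libraries at each time, and are used below to show where the KKO course differed. All cells were mouse naive CD4+ T cells stimulated in vitro by anti-CD3 and anti-CD28 antibodies, which stand in for antigen and costimulation, and every group received them. The labels give neither the age or strain of the mice, nor a Cre driver, nor the deleted exons, nor a sample before activation. They also do not say whether replicates were separate mice or cultures. Sex-linked transcripts, given below for KKO cells, differed within every group, so the libraries of a group were not all from the same mouse. The p-values measure the spread between these libraries, part of which may be technical.

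A naive T cell that meets antigen leaves rest within hours: it enlarges, makes ribosomes and nucleotides, turns to aerobic glycolysis, copies its DNA and divides, while it begins to make effector cytokines. Keap1 is the adaptor through which the transcription factor Nrf2 is marked for degradation, and cells without it carry stabilised Nrf2, which drives genes of glutathione, thioredoxin and NADPH metabolism. The comparison asks how the transcriptome of such cells moved over the second day of activation.

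Library totals were 23700100 to 28419300 expected counts in KKO cells at 24 h and 17786500 to 21196400 at 48 h. Levels are given as CPM, counts per M (mega) of the library total after TMM scaling, and replicates are listed in the order 1, 2 and 3. The first principal component held 72.8% of the variance and parted the times, with KKO libraries at -46.1, -53.6 and -43.8 at 24 h and at 79.4, 53.9 and 73.4 at 48 h. On this component KKO replicate 2 lay nearest to the WT libraries at both times. It was also the KKO replicate with high Xist, transcribed from the inactive X chromosome (771 and 288 CPM), and hardly any Y-linked transcripts (0.370 and 2.83 CPM in sum). The first KKO library at 24 h and the third at 48 h carried Xist (76.2 and 105 CPM) together with Y-linked RNA (125 and 149 CPM). These 2 are called the mixed-transcript libraries below, and results that rest on them are given with and without them. The markers of the labelled cells were present: Cd4 lay at 481, 514 and 486 CPM at 24 h and at 469, 461 and 493 CPM at 48 h, and Cd3e at 241, 236 and 252 and 231, 207 and 229 CPM.

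Markers of other cells were low but did not stand still. The summed level of the B cell markers, 7 of which were tested, was 20.5 to 29.9 CPM at 24 h and 30.7 to 38.8 CPM at 48 h, and that of the 2 CD8 T cell genes was 9.36 to 10.8 and 12.7 to 13.4 CPM. Of the macrophage markers only Cd68 and Itgam were tested, with a sum over the whole list of 12.7 to 14.5 and 15.4 to 22.2 CPM, and Fcgr1 was at 0 in all KKO libraries. The dendritic cell list summed to 98.4 to 105.6 CPM at 24 h and to 197 to 213 CPM at 48 h. This was mostly through the class II gene H2-Ab1, at 10.8, 11.01 and 12.003 and then 122, 73.4 and 99.8 CPM. The list did not move as one: of 7 tested genes 3 rose and 2 fell. The falls were in the class II gene H2-Aa (log2 fold change -0.47) and in Ciita (-1.76), and Clec9a was at 0. Natural killer markers summed to 3.16 to 4.51 and 3.11 to 4.20 CPM, those of gamma delta T and innate lymphoid cells to 8.01 to 10.7 and 8.26 to 13.7 CPM, and neutrophil and platelet markers to at most 0.329 CPM, with S100a8 and S100a9 at 0. Erythroid genes summed to 3.66 to 5.30 CPM and 1.13 to 1.43 CPM. Nuclear-retained RNAs, a check of RNA and cell integrity, summed to 105 to 363 and 63.4 to 146 CPM. The part of these cells in the results below was not tested, and in bulk RNA fewer cells of a type and less RNA per cell cannot be told apart.

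Keap1, the targeted gene (chr9:21229730-21239361, minus strand, GRCm38), lay at 16.5, 15.7 and 17.5 CPM in KKO cells at 24 h and at 22.5, 20.7 and 20.2 CPM at 48 h, against 106, 109 and 106 and then 124, 132 and 122 CPM in WT cells. Every KKO library was thus far below every WT library at both times. Within KKO cells the remaining Keap1 reads rose by 0.35 ± 0.06 (SE, adjusted p = 0.000194) on the log2 scale. Nfe2l2, the gene of Nrf2, lay at 28.9, 28.95 and 29.03 and then 39.2, 37.7 and 42.4 CPM and rose by 0.46 ± 0.06 (SE, adjusted p = 1.67e-05), close to its 0.42 in WT cells.

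Across 13196 tested genes, edgeR's quasi-likelihood test with Benjamini-Hochberg adjustment over all of them called 8945 genes (67.8%) between 24 and 48 h in KKO cells, at an adjusted p under 0.05. Of these, 4544 (34.4%) were higher at 48 h and 4401 (33.4%) were lower, and in 9293 genes (70.4%) the 3 libraries of one time did not overlap the 3 of the other. The 2 directions were near equal in number but not in size. Among called genes that moved at least 2-fold, 1909 (14.5%) rose and 768 (5.82%) fell, and at 8-fold or more 371 rose and 23 fell. The median log2 fold change of all genes was 0.00 and the median size 0.47. Because so many genes passed the test, the counts for gene groups below are to be read against these shares, and their medians against 0.00.

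KKO replicate 2 at 48 h often lay nearest to the 24 h level. It was the lowest of the 3 libraries in 1489 of the 1909 genes that rose at least 2-fold (78.0%) and the highest in 519 of the 768 that fell (67.6%), against 43.5 and 37.9% of all tested genes. At 24 h the library numbered 2 was the lowest in 961 of the genes that rose (50.3%) and the highest in 352 of those that fell (45.8%), against 46.6 and 29.6% of all tested genes. The count of called genes was 9246 without this library and ran from 8262 to 9246 over the fits that left out 1 KKO library. It was 7928 without the 2 mixed-transcript libraries.

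The largest rises came from genes that were close to silent at 24 h. Tgfb3, which encodes the ligand TGF-beta 3 (chr12:86056745-86079041, minus strand), had 0.250, 0.0821 and 0.341 CPM at 24 h and 83.5, 31.97 and 67.2 CPM at 48 h. Its mean was 271-fold higher at 48 h, at a log2 change of 8.05 ± 0.60 (SE, adjusted p = 1.41e-06). Selenbp1, which encodes a selenium-binding methanethiol oxidase (chr3:94933056-94944758, plus strand), went from 0.501, 0.452 and 0.341 CPM to 118, 47.5 and 101 CPM, 206-fold higher, at a log2 change of 7.66 ± 0.54 (SE, adjusted p = 1.19e-06). Both genes were highest in replicate 1 and lowest in replicate 2 at 48 h. Their groups were far from overlapping, and a lack of overlap was required of the largest rises. Tgm2, which encodes the protein-crosslinking enzyme transglutaminase 2, had 10.7, 2.998 and 16.4 CPM at 24 h and 1602, 1057 and 1491 CPM at 48 h, at a log2 change of 7.11 ± 0.53 (SE, adjusted p = 3.07e-06). Another transglutaminase gene, Tgm1, went from 0.250, 0.164 and 0.170 to 36.5, 13.6 and 30.8 CPM (log2 fold change 7.06 ± 0.55).

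Other genes of this kind encode proteins of the cell surface, secreted factors and metabolic enzymes. Vldlr, the receptor for very low density lipoprotein, rose from 0.358, 0.123 and 0.511 CPM to 55.8, 39.7 and 51.5 CPM, at a log2 change of 7.19 ± 0.33 (SE, adjusted p = 7.74e-09). Itga7, a laminin-binding integrin chain, rose from 0.966, 0.370 and 1.70 CPM to 169, 65.3 and 146 CPM. Pygl, the liver form of glycogen phosphorylase, rose from 0.0358, 0.123 and 0.0426 CPM to 17.2, 9.34 and 15.7 CPM. Their log2 fold changes were 6.98 ± 0.68 for Itga7 and 7.63 ± 0.42 for Pygl. Plcd1, a phosphoinositide-cleaving phospholipase, rose by 7.14 ± 0.40, and Stc1, which encodes the secreted glycoprotein stanniocalcin 1, by 6.52 ± 0.58. Osr2, a zinc finger transcription factor gene, was the exception among them in being highest in replicate 2 at 48 h, at 4.18, 8.54 and 3.86 CPM after 0.0358, 0.0411 and 0.0851 CPM, a rise of 6.57 ± 0.55.

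For 4 of the 15 largest rises the 24 h libraries together held only 1 to 3 counts, so the ratio is loose. The 48 h level was 425-fold that at 24 h for Adamtsl5 (exact 95% counting interval 75.8 to 16854) and 263-fold for Hapln4 (72.5 to 2183). It was 167-fold for the uridine phosphorylase gene Upp1 (56.6 to 812) and 112-fold for Fgf11 (37.99 to 548). These intervals cover counting error only. H2-Q10, a class I histocompatibility gene, went from 0.179, 0 and 0.213 CPM to 53.9, 24.95 and 44.7 CPM, a log2 fold change of 8.23 ± 0.64. It shares reads with near-identical class I genes, so its value is uncertain.

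**Figure D1:**
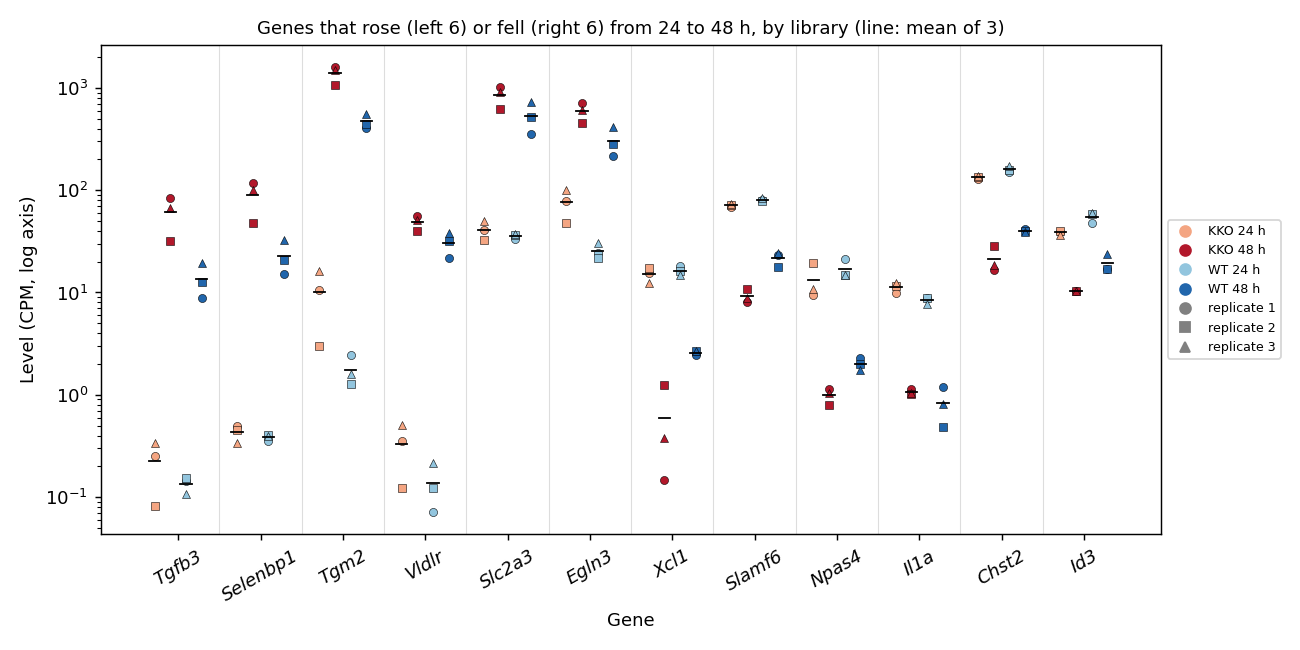
Level of 12 genes in each of the 12 libraries, in CPM on a log axis, with the colour giving genotype and time, the symbol the replicate and the line the mean of 3. In KKO cells Tgfb3 moved from at most 0.341 CPM to at least 32.0 CPM, and Xcl1 from at least 12.3 CPM to at most 1.24 CPM.

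Apart from Sssca1, given last, the 15 largest falls were smaller than the 15 largest rises. Xcl1, which encodes lymphotactin, a chemokine for the XCR1 receptor of cross-presenting dendritic cells (chr1:164931644-164935527, minus strand), had 15.5, 17.5 and 12.3 CPM at 24 h and 0.148, 1.24 and 0.382 CPM at 48 h. Its mean was 25.5-fold lower at 48 h, at a log2 change of -4.73 ± 0.34 (SE, adjusted p = 9.72e-08), and replicate 2 kept the most. Npas4, an activity-induced transcription factor gene, went from 9.41, 19.2 and 10.7 CPM to 1.13, 0.792 and 1.05 CPM, at a log2 change of -3.71 ± 0.32 (SE, adjusted p = 4.65e-07). The cytokine gene Il1a went from 9.98, 11.5 and 12.4 CPM to 1.13, 1.02 and 1.05 CPM (log2 fold change -3.39 ± 0.20). In each of these genes every library at 48 h was below every library at 24 h, which the choice of the largest falls required.

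The other large falls were in genes of varied function. Slamf6, a receptor that T and natural killer cells use for contact with each other and with B cells, went from 69.04, 71.6 and 72.8 CPM to 8.06, 10.8 and 8.83 CPM, at a log2 change of -2.95 ± 0.11 (SE, adjusted p = 1.69e-10). Chst2, a sulfotransferase gene of selectin ligand synthesis, went from 129, 134 and 138 CPM to 16.5, 28.5 and 18.7 CPM (-2.66 ± 0.14). Log2 fold changes were -2.90 ± 0.20 for Neto2, -2.60 ± 0.35 for Fam26f, -2.72 ± 0.23 for Igsf9, -2.69 ± 0.25 for the B cell-associated receptor gene Fcrl1 and -2.56 ± 0.15 for the alkaline phosphatase gene Alpl. Sntb1, a syntrophin gene, stood at -3.03 ± 0.19 and the adenylate kinase gene Ak7 at -3.27 ± 0.23. Transcripts known to lack a poly(A) tail were among the falls as well, the ribonuclease P RNA Rpph1 (-3.56 ± 0.37) and the histone gene Hist1h3a (-2.53 ± 0.21), which shares sequence with other H3 genes.

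Sssca1 was listed at 0 in every KKO library at 48 h, after 24.4, 20.3 and 25.4 CPM at 24 h, and was thus at least 460.1-fold lower against a floor of 3 counts over the group. The gene overlaps Fam89b and the antisense gene Gm16538 in the GRCm38 annotation, so its reads could be assigned elsewhere. Fam89b lay at 48.4, 47.7 and 41.4 CPM at 24 h and 47.5, 54.9 and 49.3 CPM at 48 h. The call for Sssca1 was lost when replicate numbers were fitted as a block (adjusted p = 0.0712).

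**Figure D2:**
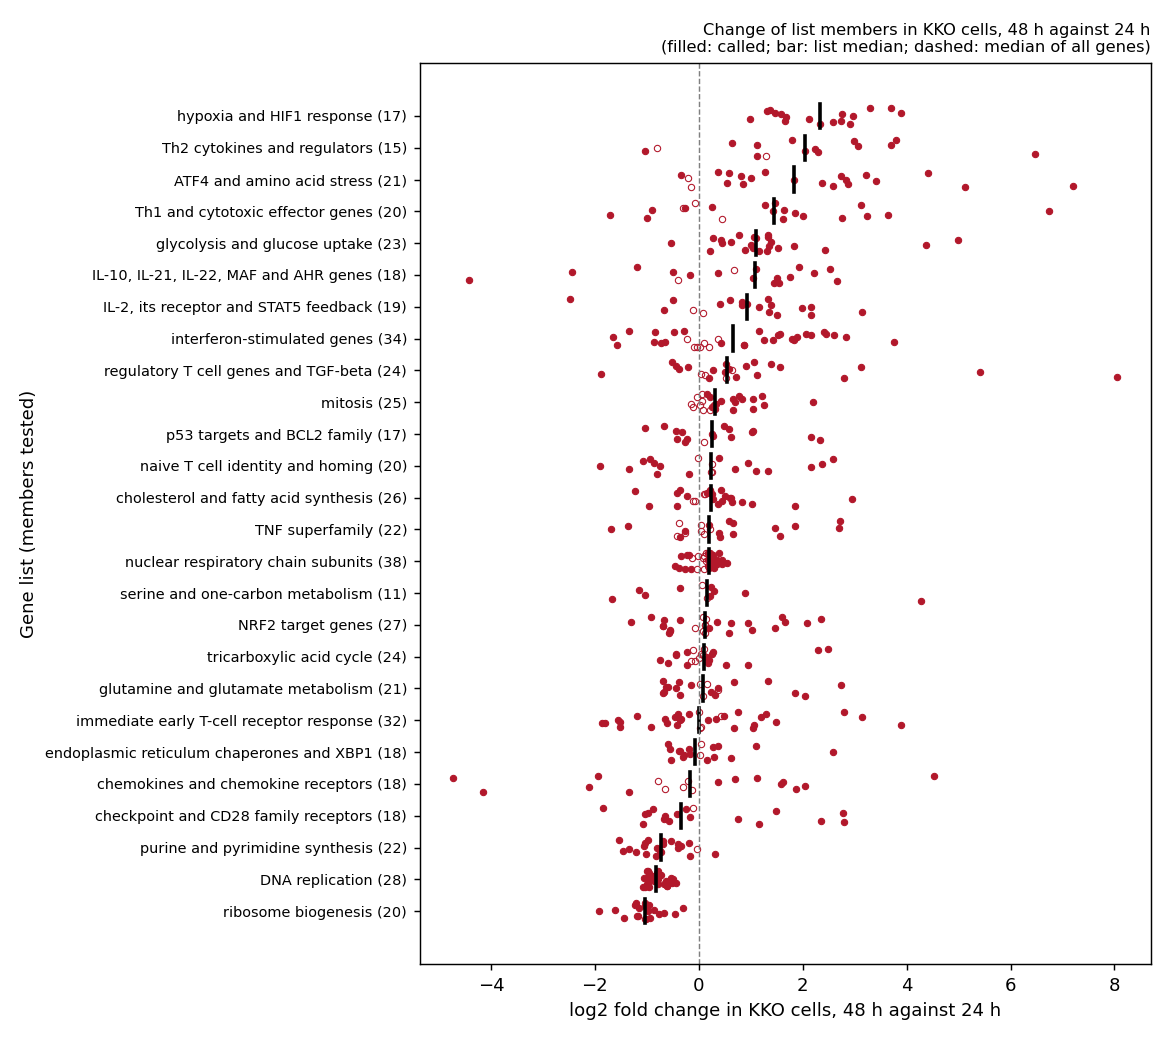
Log2 fold change between 24 and 48 h in KKO cells for every tested member of 26 gene lists, with filled points for called genes, a bar at each list's median and a dashed line at the median of all genes. The hypoxia list had the highest median, at 2.32, and the ribosome biogenesis list the lowest, at -1.04.

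The plot of list members orders 26 lists by their median change. Hypoxia-inducible factor 1 (HIF1) is a transcription factor that low oxygen or growth signals stabilise, and its targets serve glucose use, mitophagy, angiogenesis and the control of HIF1 itself. All 17 tested genes of the hypoxia list rose, 16 of them at least 2-fold, with a median of 2.32. Ndrg1, a stress-responsive gene of the N-myc downstream-regulated family, lay at 20.7, 13.3 and 25.2 CPM at 24 h and 379, 202 and 293 CPM at 48 h, at a log2 change of 3.88 ± 0.35 (SE, adjusted p = 7.57e-06). Bnip3, a mitophagy receptor gene, went from 30.2, 13.96 and 40.7 CPM to 327, 234 and 275 CPM (3.30 ± 0.36). The collagen prolyl hydroxylase gene P4ha2 went from 3.33, 2.63 and 5.19 CPM to 55.8, 38.98 and 48.8 CPM (3.69 ± 0.26), and Egln3, a prolyl hydroxylase that marks HIF proteins for decay, from 78.6, 48.3 and 101 CPM to 717, 454 and 614 CPM (2.97 ± 0.34). In Ndrg1, Bnip3 and Egln3 replicate 2 was the lowest library at both times. Hif1a itself rose by 1.32 ± 0.10, the angiogenic growth factor gene Vegfa by 1.65 ± 0.12, and P4ha1, the smallest rise of the list, by 0.996 ± 0.13.

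The 250 bases before the RefSeq start of P4ha2 and Bnip3 are shown because they hold the letters to which HIF1 is known to bind (RefSeq, GRCm38.p6, 5′ to 3′ on the gene's own strand). Capitals mark ACGTG and GCGTG on either strand (CACGT and CACGC when read on the other), and CACGTG holds ACGTG on both strands.
P4ha2 chr11:54100674-54100923 plus strand: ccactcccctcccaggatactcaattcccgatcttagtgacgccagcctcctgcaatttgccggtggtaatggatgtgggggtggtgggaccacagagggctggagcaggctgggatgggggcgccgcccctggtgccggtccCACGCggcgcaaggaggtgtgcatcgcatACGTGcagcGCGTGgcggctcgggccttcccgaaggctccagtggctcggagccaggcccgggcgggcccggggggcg
Bnip3 chr7:138909507-138909756 minus strand: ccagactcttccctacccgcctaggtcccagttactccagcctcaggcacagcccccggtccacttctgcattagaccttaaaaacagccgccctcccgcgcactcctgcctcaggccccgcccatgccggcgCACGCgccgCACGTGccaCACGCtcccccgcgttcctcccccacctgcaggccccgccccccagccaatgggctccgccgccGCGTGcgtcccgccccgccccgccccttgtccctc
Of the 13 hypoxia genes with a RefSeq window (250 bases before to 50 after the start), 11 held ACGTG (84.6%) and 9 held GCGTG (69.2%), against 29.9% and 56.8% of the 9420 tested genes with a window. All 13 held one or the other, against 68.4% of those genes. The list consists of known HIF1 targets, so its motif content was part of what those genes are known for, and a match says nothing of binding in these cells.

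Glycolysis genes moved the same way. Of 23 tested, 22 rose, 15 of them at least 2-fold, and 1 fell, with a median of 1.10. The glucose transporter gene Slc2a3 went from 40.7, 32.4 and 49.4 CPM to 1015, 619 and 902 CPM, at a log2 change of 4.37 ± 0.31 (SE, adjusted p = 1.22e-06), while Slc2a1, which encodes the other main T cell glucose transporter, rose by 1.10 ± 0.15. Aldoc, an aldolase gene, went from 3.93, 1.77 and 5.36 CPM to 142, 77.1 and 129 CPM (4.98 ± 0.38). The lactate exporter gene Slc16a3 went from 93.1, 51.2 and 128 CPM to 524, 484 and 453 CPM (2.42 ± 0.28). Slc16a1, the gene of another lactate transporter, was the member that fell (-0.54 ± 0.07). The steps of the pathway were covered throughout, with Hk1 at 1.32, Gpi1 at 1.04, Pfkp at 1.32, Aldoa at 1.17, Tpi1 at 1.30, Pgk1 at 1.53 and Ldha at 0.89. Pfkm, a phosphofructokinase gene, went from 17.6, 17.4 and 18.1 CPM to 68.9, 51.1 and 69.03 CPM (1.83 ± 0.11).

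ATF4 is the transcription factor of the integrated stress response, which a shortage of amino acids or stress of the endoplasmic reticulum or mitochondria sets off. Of 21 tested genes on the ATF4 list, 18 rose, 13 at least 2-fold, 1 fell and 2 were not called, with a median of 1.84. The count that fell was 3 without KKO replicate 2 at 48 h. Vldlr, described above, is on the list and had its largest value. Asns, which encodes asparagine synthetase, lay at 26.1, 23.8 and 24.2 CPM at 24 h and 167, 173 and 157 CPM at 48 h, at a log2 change of 2.74 ± 0.07 (SE, adjusted p = 2.41e-12), and its 3 libraries at each time lay close together. Nupr1, a stress-induced nuclear protein gene, went from 0.179, 0 and 0.298 CPM to 5.80, 5.38 and 5.96 CPM (5.13 ± 0.45), and Stc2, for stanniocalcin 2, from 0.894, 1.15 and 1.40 CPM to 21.7, 25.5 and 25.6 CPM (4.41 ± 0.16). Ddit4, an inhibitor of mTORC1, went from 35.8, 23.8 and 41.97 CPM to 443, 251 and 382 CPM (3.40 ± 0.29). Ddit3, which encodes CHOP, rose by 3.22 ± 0.13, the pseudokinase gene Trib3 by 2.82 ± 0.22, the cationic amino acid transporter gene Slc7a3 by 2.87 ± 0.14 and Cth, of cysteine synthesis, by 2.58 ± 0.10. Atf4 itself rose by 0.37 ± 0.07. The synthetase genes were split, with Sars at 0.80, Aars not called at -0.14 (adjusted p = 0.0584) and Wars at -0.34, the member that fell.

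The windows before Asns and Nupr1 are shown because each holds TGATGNAA, the core letters of the C/EBP-ATF element that ATF4 is known to use. Capitals mark the match, which in Nupr1 reads on the opposite strand.
Asns chr6:7693210-7693459 minus strand: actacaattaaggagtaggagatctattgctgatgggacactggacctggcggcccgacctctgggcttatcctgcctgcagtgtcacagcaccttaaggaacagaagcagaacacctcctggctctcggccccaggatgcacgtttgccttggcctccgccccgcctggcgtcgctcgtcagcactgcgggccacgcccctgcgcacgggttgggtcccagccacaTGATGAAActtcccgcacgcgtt
Nupr1 chr7:126625471-126625720 minus strand: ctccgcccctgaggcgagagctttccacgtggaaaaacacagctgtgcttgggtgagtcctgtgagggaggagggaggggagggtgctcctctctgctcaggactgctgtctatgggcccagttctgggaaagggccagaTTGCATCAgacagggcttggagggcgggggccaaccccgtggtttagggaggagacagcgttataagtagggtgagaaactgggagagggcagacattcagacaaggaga
Among the 18 genes of the list with a RefSeq window, 7 held TGATGNAA on either strand (38.9%), against 2.75% of the 9420 tested genes with a window. As with the hypoxia genes, the list was made of known ATF4 targets.

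Genes of glutamine and glutamate metabolism were divided. Of 21 tested, 8 rose and 9 fell, 4 of the rises and none of the falls reached 2-fold, and the median was 0.08. The enzymes that transfer nitrogen or make proline were among the rises: Gpt2, the mitochondrial alanine transaminase gene, went from 10.2, 7.68 and 9.32 CPM to 35.1, 38.6 and 38.2 CPM (2.04 ± 0.10), and Pycr1, of proline synthesis, rose by 1.33 ± 0.16. Gls2, a glutaminase gene, rose by 1.86 ± 0.14. The glutamine transporter genes Slc1a5 (-0.63 ± 0.09), Slc38a1 (-0.70 ± 0.08) and Slc38a2 (-0.38 ± 0.08) fell.

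In the tricarboxylic acid cycle list 9 of 24 tested genes rose, 6 fell and the median was 0.09, so that its members were mostly close to the median of all genes. Pcx, which encodes pyruvate carboxylase, rose from 10.3, 8.79 and 10.4 CPM to 67.2, 38.4 and 60.5 CPM (2.50 ± 0.18) and Idh1, of the cytosolic isocitrate dehydrogenase, from 3.005, 1.56 and 2.51 CPM to 10.6, 12.7 and 11.6 CPM (2.29 ± 0.18). Ogdh, a subunit of the 2-oxoglutarate dehydrogenase complex, fell (-0.74 ± 0.06), as did Idh3a (-0.60 ± 0.06). Nuclear-encoded subunits of the respiratory chain moved little: 23 of 38 rose and 7 fell, none by 2-fold, with a median of 0.20, from -0.46 for Atp5g1 to 0.54 for Cox4i1. The count that fell was 4 without the 2 mixed-transcript libraries.

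Lipid synthesis genes moved both ways. Of 26 tested, 16 rose and 6 fell, with a median of 0.24. The stearoyl-CoA desaturase genes rose most, Scd1 from 28.7, 17.9 and 25.9 CPM to 161, 222 and 181 CPM (2.95 ± 0.16) and Scd2 by 1.86 ± 0.13. Fasn, which encodes fatty acid synthase, went from 1029.8, 1172 and 1114 CPM to 375, 571 and 470.4 CPM and fell (-1.23 ± 0.20), as did the acetyl-CoA carboxylase gene Acaca (-0.95 ± 0.10). In the mevalonate branch Fdps rose by 1.03 ± 0.09 and Mvd by 0.84 ± 0.10, while Dhcr7 (-0.23) and Sc5d (-0.41), of the last steps to cholesterol, fell. Only 3 genes fell without the first or the third KKO library of 48 h, or without the 2 mixed-transcript libraries.

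The NRF2 target list bears on the knocked-out gene most directly, and it did not move as a block over time. Of 32 genes 27 were tested, of which 11 rose, 9 fell and 7 were not called, with a median of 0.12. The summed level of the list was 4477 to 5094 CPM at 24 h and 4745 to 4955 CPM at 48 h in KKO cells. In WT cells it was 3141 to 3359 and 3349 to 3468 CPM. The falls held genes of glutathione and thioredoxin metabolism: Gclc (-0.68 ± 0.06) and Gclm (-0.69 ± 0.09), the subunits of glutamate-cysteine ligase, Gsr (-0.57 ± 0.06), Txnrd1 (-0.91 ± 0.07), Prdx1 (-0.55 ± 0.09), Srxn1 (-0.69 ± 0.08) and the cystine transporter gene Slc7a11 (-0.37 ± 0.11). The quinone reductase gene Nqo1 (-0.55 ± 0.15) and the exporter gene Abcc4 (-1.31 ± 0.08) fell as well. Srxn1, of the enzyme that repairs peroxiredoxins, lay at 44.5, 39.1 and 43.6 CPM at 24 h and 25.1, 28.6 and 25.3 CPM at 48 h. Among the rises were the haem oxygenase gene Hmox1, from 6.08, 5.42 and 6.09 CPM to 21.5, 15.2 and 16.98 CPM (1.61 ± 0.15), malic enzyme Me1 (2.09 ± 0.38), Gstm1 (1.65 ± 0.28) and Osgin1 (2.35 ± 0.53). Of the pentose phosphate genes, Tkt rose by 0.35 ± 0.05, while G6pdx (0.08, adjusted p = 0.261), Pgd (0.12, adjusted p = 0.265) and Taldo1 (0.13, adjusted p = 0.0816) were not called.

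Chaperones of the endoplasmic reticulum gave 7 rises and 9 falls among 18 tested genes, with a median of -0.07. Xbp1, which encodes a transcription factor of the unfolded protein response, rose by 1.10 ± 0.07, and the oxidase gene Ero1l, which the hypoxia list also holds, from 158, 130.3 and 166 CPM to 1090.1, 662 and 983 CPM (2.59 ± 0.21). Hspa5, the gene of the chaperone BiP, had a log2 fold change of -0.16 ± 0.05 and Calr, of calreticulin, one of -0.53 ± 0.05, both falls. In the list of p53 targets and BCL2 family genes 9 of 17 rose and 7 fell, with a median of 0.25. The cell cycle inhibitor gene Cdkn1a rose from 80.8, 81.3 and 96.7 CPM to 541, 335 and 424 CPM (2.33 ± 0.22), and Bcl2, the survival factor, from 64.4, 54.1 and 66.4 CPM to 293, 213 and 315 CPM (2.15 ± 0.15), while the death-promoting gene Bid fell (-1.04 ± 0.10).

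All 20 tested genes of ribosome biogenesis fell, 12 of them at least 2-fold, with a median of -1.04. Utp20, of the small subunit processome, went from 274, 305 and 294 CPM to 61.3, 94.2 and 74.9 CPM, at a log2 change of -1.92 ± 0.17 (SE, adjusted p = 1.6e-06). Polr1b, a subunit of RNA polymerase I, went from 201, 205 and 196 CPM to 56.01, 85.8 and 55.2 CPM (-1.61 ± 0.15), and the nucleolar phosphoprotein gene Nolc1 from 946, 897 and 908 CPM to 287, 427 and 299 CPM (-1.44 ± 0.14). In these 3 genes replicate 2 kept the highest level at 48 h. Of 22 genes of purine and pyrimidine synthesis 20 fell, 7 at least 2-fold, with a median of -0.74. Cad, whose product starts pyrimidine synthesis, went from 727, 765 and 779.7 CPM to 219, 303 and 259.8 CPM (-1.54 ± 0.15), and the log2 fold changes of Pfas, of purine synthesis, and Umps were -1.46 ± 0.13 and -1.34 ± 0.12. Tk1, a thymidine salvage kinase gene, rose (0.31 ± 0.09). In one-carbon metabolism 5 of 11 genes rose and 4 fell. The split was large, with Shmt1, of the cytosolic serine hydroxymethyltransferase, at 52.3, 82.4 and 52.9 CPM after 208, 190.1 and 195 CPM (-1.66 ± 0.14), and Aldh1l2, of a mitochondrial formyltetrahydrofolate dehydrogenase, at 21.9, 16.4 and 23.2 CPM after 1.11, 0.944 and 1.11 CPM (4.28 ± 0.22).

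DNA replication and mitosis went opposite ways. All 28 tested replication genes fell, 4 of them at least 2-fold, with a median of -0.83 and a narrow range from -0.43 for Rfc4 to -1.07 for Mcm10. The helicase subunit gene Mcm4 went from 622, 597 and 608 CPM to 285, 331 and 294 CPM, at a log2 change of -1.01 ± 0.07 (SE, adjusted p = 1.19e-08). Mcm10, which helps to start replication, went from 163, 163 and 159 CPM to 66.9, 93.1 and 71.7 CPM (-1.07 ± 0.10). Of 25 mitosis genes 17 rose, 5 at least 2-fold, none fell and 8 were not called, with a median of 0.31. Ccnb2, of a mitotic cyclin, went from 16.6, 14.7 and 19.1 CPM to 76.6, 77.01 and 78.95 CPM (2.21 ± 0.11) and Ube2c, of the ubiquitin-conjugating enzyme that serves the anaphase-promoting complex, from 63.6, 55.3 and 68.2 CPM to 142, 165 and 141 CPM (1.26 ± 0.09). Cdk1 (-0.04, adjusted p = 0.745), Mki67 (-0.11, adjusted p = 0.553) and Top2a (-0.15, adjusted p = 0.0887) were not called. Without KKO replicate 2 at 48 h 2 mitosis genes fell, and 1 did without replicate 2 at 24 h.

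Most genes of the effector cytokine lists rose, with exceptions in each. Of 15 tested genes on the Th2 list 12 rose and 1 fell, with a median of 2.05. Il24 went from 0.751, 0.657 and 1.45 CPM to 99.2, 60.9 and 90.7 CPM, at a log2 change of 6.47 ± 0.27 (SE, adjusted p = 3.99e-09). The cytokine gene Il5 went from 0.107, 0.287 and 0.213 CPM to 2.999, 2.21 and 2.72 CPM (3.70 ± 0.37) and Il13 rose by 2.98 ± 0.17, Il4 by 2.23 ± 0.33 and Gata3, the transcription factor that directs Th2 cells, by 2.29 ± 0.10. Nfil3, a transcription factor gene, went from 13.5, 9.24 and 15.8 CPM to 195, 152 and 190.3 CPM (3.80 ± 0.16). The fall, in Il9 (-1.04 ± 0.38, adjusted p = 0.0237), was lost without KKO replicate 1 or 3 at 24 h, without replicate 3 at 48 h, without the 2 mixed-transcript libraries and under the stricter filter. Ecm1, a secreted protein gene, went from 13.3, 12.9 and 13.7 CPM to 134, 49.5 and 149 CPM (3.06 ± 0.39), and its replicate 2 at 48 h lay far below the other two.

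Of 20 tested Th1 and cytotoxic genes 13 rose and 4 fell, with a median of 1.45, and the granzymes moved apart from the lineage regulators. Gzmb, of the cytotoxic protease granzyme B, went from 215, 144 and 214 CPM to 1826, 1771 and 1823 CPM, at a log2 change of 3.24 ± 0.17 (SE, adjusted p = 1.62e-08). Il12rb2, of the signalling chain of the IL-12 receptor, went from 32.7, 23.4 and 37.1 CPM to 411, 327 and 420.03 CPM (3.63 ± 0.18), and Gzmc from 1.25, 0.821 and 1.36 CPM to 14.7, 6.39 and 8.92 CPM (3.12 ± 0.38). Gzmd, at 0 in every KKO library at 24 h, was at least 14.1-fold higher at 48 h against a floor of 3 counts over the group. Gzmc, Gzmd and Gzmf are close in sequence, so reads may be shared among them. The lineage transcription factor genes Tbx21 (-1.003 ± 0.14) and Eomes (-1.71 ± 0.24) fell, and Ifng, at 0.45 (adjusted p = 0.276), was not called.

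The list of IL-10, IL-21, IL-22, MAF and AHR genes had 11 rises and 5 falls among 18 tested, with a median of 1.08. In WT cells the same genes had 6 rises and 5 falls, with a median of -0.09. Il10 went from 0.751, 0.493 and 0.894 CPM to 6.05, 2.32 and 5.15 CPM, at a log2 change of 2.66 ± 0.42 (SE, adjusted p = 5.67e-05), and Il21 and Il22 rose by 1.75 ± 0.57 and 1.45 ± 0.47. Maf rose by 1.51 ± 0.42 and Ahr, the aryl hydrocarbon receptor gene, by 1.54 ± 0.27. Targets of that receptor did not move as one: Tiparp rose from 7.69, 5.91 and 9.19 CPM to 54.5, 28.1 and 47.9 CPM (2.52 ± 0.27), while Cyp1a1 went from 1.40, 1.85 and 1.45 CPM to 0.0983, 0 and 0.0954 CPM (-4.43 ± 0.52) and its repressor gene Ahrr fell (-2.43 ± 0.48).

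Of the regulatory T cell and TGF-beta genes 15 of 24 rose and 5 fell, with a median of 0.55. The ligand gene Tgfb3 led the list, and the latent TGF-beta binding protein gene Ltbp3 followed, from 0.107, 0.164 and 0.128 CPM to 6.93, 3.06 and 7.39 CPM (5.41 ± 0.44). Tgfb1 rose by 0.28 ± 0.05 only. Among receptors and signal carriers Tgfbr2 rose by 0.51 ± 0.08 and Smad3 by 0.58 ± 0.13, while Tgfbr1 (-0.44 ± 0.10) and Smad2 (-0.51 ± 0.07) fell. Entpd1, of the ectonucleotidase CD39, went from 0.465, 0.329 and 0.426 CPM to 4.18, 1.75 and 4.72 CPM (3.11 ± 0.42). Foxp3, the transcription factor gene that defines regulatory T cells, fell (-1.88 ± 0.21), as it did in WT cells (-1.90 ± 0.22). The falls numbered 3 without any 1 of the 3 KKO libraries at 24 h, without replicate 3 at 48 h, or without the 2 mixed-transcript libraries.

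In the checkpoint and CD28 family 6 of 18 genes rose and 11 fell, with a median of -0.34. Ctla4, an inhibitory receptor gene, went from 53.7, 53.96 and 60.1 CPM to 482, 258 and 418 CPM, at a log2 change of 2.79 ± 0.28 (SE, adjusted p = 1.29e-05), and Tigit from 10.8, 10.1 and 11.5 CPM to 61.6, 47.02 and 56.1 CPM (2.35 ± 0.11). Lgals3, of galectin 3, rose by 2.78 ± 0.25, Lag3 by 1.17 ± 0.12 and Havcr2, of TIM-3, by 1.49 ± 0.28. In contrast Pdcd1, of PD-1, went from 91.6, 97.8 and 94.6 CPM to 27.5, 29.03 and 22.8 CPM (-1.84 ± 0.08), and Btla (-1.07 ± 0.06) and Cd160 (-0.97 ± 0.19) fell. Of the TNF superfamily 11 of 22 rose and 4 fell, with a median of 0.20. The receptor genes Tnfrsf9, from 142, 128 and 145 CPM to 1055, 711 and 926 CPM (2.70 ± 0.17), and Tnfrsf8 (2.72 ± 0.24) rose most, and the ligand genes Tnf, from 109, 118 and 102 CPM to 29.9, 39.4 and 33.3 CPM (-1.69 ± 0.09), and Cd40lg (-1.36 ± 0.09) fell most.

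Genes of the first response to the T-cell receptor moved both ways. Of 32 tested 13 rose and 15 fell, with a median of 0.01. The Egr genes fell (Egr1 -0.91 ± 0.07, Egr2 -1.19 ± 0.12, Egr3 -1.52 ± 0.10), as did the early activation marker Cd69 (-1.80 ± 0.09) and the AP-1 gene Fosl1, from 19.5, 22.8 and 20.9 CPM to 5.11, 5.71 and 6.44 CPM (-1.87 ± 0.13). The early response gene Ier3 had the largest rise, from 5.01, 3.53 and 7.02 CPM to 95.7, 53.8 and 80.8 CPM (3.89 ± 0.31). Other AP-1 genes rose, Fosl2 from 45.3, 32.4 and 52.8 CPM to 359, 225 and 319 CPM (2.79 ± 0.22), Batf3 by 3.14 ± 0.20 and Junb by 1.48 ± 0.11. Myc had a log2 fold change of -0.46 ± 0.09, a fall, and Irf4 of 0.17 ± 0.05, a small rise.

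Of 19 genes of IL-2 and STAT5 signalling 14 rose and 3 fell, with a median of 0.93. The ligand and its receptor moved apart. Il2 went from 149.6, 133 and 142 CPM to 10.03, 48.7 and 18.7 CPM, at a log2 change of -2.47 ± 0.44 (SE, adjusted p = 0.000966) and the highest 48 h level in replicate 2, while the receptor chain genes Il2ra and Il2rb rose by 1.38 ± 0.08 and 1.35 ± 0.09. The common chain gene Il2rg fell (-0.50 ± 0.05). The feedback inhibitor gene Socs3 went from 31.6, 18.7 and 35.6 CPM to 297, 172 and 284 CPM (3.13 ± 0.28), and Il7r, of the IL-7 receptor, from 12.98, 11.2 and 11.7 CPM to 60.9, 38.9 and 61.3 CPM (2.16 ± 0.16).

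Among naive cell and homing genes 8 of 20 rose and 8 fell, with a median of 0.25. Receptors for lymph node entry and exit were among the rises: S1pr1 went from 4.72, 3.41 and 4.34 CPM to 28.96, 13.4 and 22.3 CPM (2.37 ± 0.26) and Ccr7 rose by 0.69 ± 0.07. The transcription factor genes Id3, from 38.95, 40.3 and 36.7 CPM to 10.4, 10.4 and 10.3 CPM (-1.90 ± 0.13), Bach2 (-0.86 ± 0.07) and Tcf7 (-0.74 ± 0.07) fell, and Lef1 (-0.02, adjusted p = 0.814) was not called. Of 18 chemokine and chemokine receptor genes 8 rose and 5 fell, with a median of -0.17. All 8 rises but 1 were receptors, led by Cxcr4, from 2.18, 1.31 and 2.21 CPM to 54.3, 29.03 and 49.2 CPM (4.53 ± 0.46), the exception being the chemokine gene Ccl5 (1.62 ± 0.19). All 5 falls were chemokines: Xcl1, Ccl1 (-4.15 ± 0.60), Ccl3, from 121, 139 and 109 CPM to 21.5, 42.3 and 22.7 CPM (-2.11 ± 0.23), Ccl4 (-1.95 ± 0.14) and Cxcl10 (-1.35 ± 0.32).

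Of 34 tested interferon-stimulated genes 17 rose, 15 of them at least 2-fold, 9 fell and 8 were not called, with a median of 0.66. The summed level of the list nevertheless fell in KKO cells, from 1883 to 2088 CPM at 24 h to 1416 to 1642 CPM at 48 h. In WT cells it was 2048 to 2111 CPM at 24 h and 2450 to 2959 CPM at 48 h. Oas3, of an antiviral oligoadenylate synthetase, went from 9.44, 6.86 and 8.56 CPM to 47.1, 53.02 and 51.3 CPM, at a log2 change of 2.60 ± 0.15 (SE, adjusted p = 1.08e-08). Usp18, a feedback inhibitor of interferon signalling, went from 4.97, 3.16 and 4.30 CPM to 19.7, 26.6 and 22.5 CPM (2.46 ± 0.20), and Irf7, a transcription factor gene of the response, from 1.93, 2.01 and 1.23 CPM to 5.85, 6.79 and 6.82 CPM (1.90 ± 0.21). Of the guanylate-binding protein genes on the list Gbp4 (-1.64 ± 0.08), Gbp2 (-0.85 ± 0.07), Gbp5 (-0.72 ± 0.08), Gbp6 (-0.84 ± 0.15) and Gbp3 (-0.28 ± 0.08) fell, and Gbp7 (-0.23, adjusted p = 0.0928) was not called. The members of the Gbp, Oas and Ifi families are close to each other in sequence, and their single values carry that uncertainty.

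The changes also reached the most abundant transcripts. Among called genes, the 10 with the highest mean CPM in KKO cells at 48 h included Gapdh, from 4964, 4077 and 4939 CPM to 13497, 11212 and 12017 CPM (1.39 ± 0.09), and Eno1 and Pkm of the same pathway (1.35 ± 0.09 and 1.06 ± 0.08). The translation elongation factor genes Eef1a1, from 9311, 8322 and 8573 CPM to 16419.5, 13541 and 15576 CPM (0.80 ± 0.08), and Eef2 (0.70 ± 0.06) rose, as did the ribosomal protein genes Rpsa, Rplp0 and Rps2, by 0.48, 0.55 and 0.52. Hsp90ab1, the one that fell (-0.12 ± 0.05, adjusted p = 0.0418), lost its call under upper-quartile scaling (adjusted p = 0.0767), in a fit of the 6 KKO libraries alone (0.149), without the 2 mixed-transcript libraries (0.26) and without replicate 1 or replicate 3 of either time (0.0561 to 0.093).

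The course in WT cells was close to that in KKO cells. In WT 8017 genes were called (60.8%), 4097 higher (31.0%) and 3920 lower (29.7%) at 48 h. In the same direction in both genotypes were 6969 genes, 77.9% of the KKO calls and 86.9% of the WT calls, and 60 genes were called in opposite directions. The 13196 genes are not independent replicates and share the same libraries, depth and scaling. Across them the log2 fold changes of the 2 genotypes had Pearson's r of 0.87 and Spearman's rho of 0.87. The slope of their first principal axis, an orthogonal fit and not a regression of KKO on WT, was 1.17. Such an axis steepens with a wider spread in KKO cells, where the median size of change was 0.47 against 0.38 in WT. A regression slope was not calculated. The plot of both time effects sets each gene against a line of equal change. All of the 15 largest rises in KKO cells were also rises in WT cells, and no difference between the genotypes was called for them. Tgfb3, for example, rose by 6.60 ± 0.68 in WT cells, from 0.143, 0.154 and 0.107 CPM to 8.81, 12.6 and 19.3 CPM, and the difference of the time effects was 1.46 ± 1.61 (SE, adjusted p = 0.635). For Selenbp1 it was 1.77 ± 1.11 (SE, adjusted p = 0.37). The SE of such genes, near 0 at 24 h, is only approximate.

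**Figure D3:**
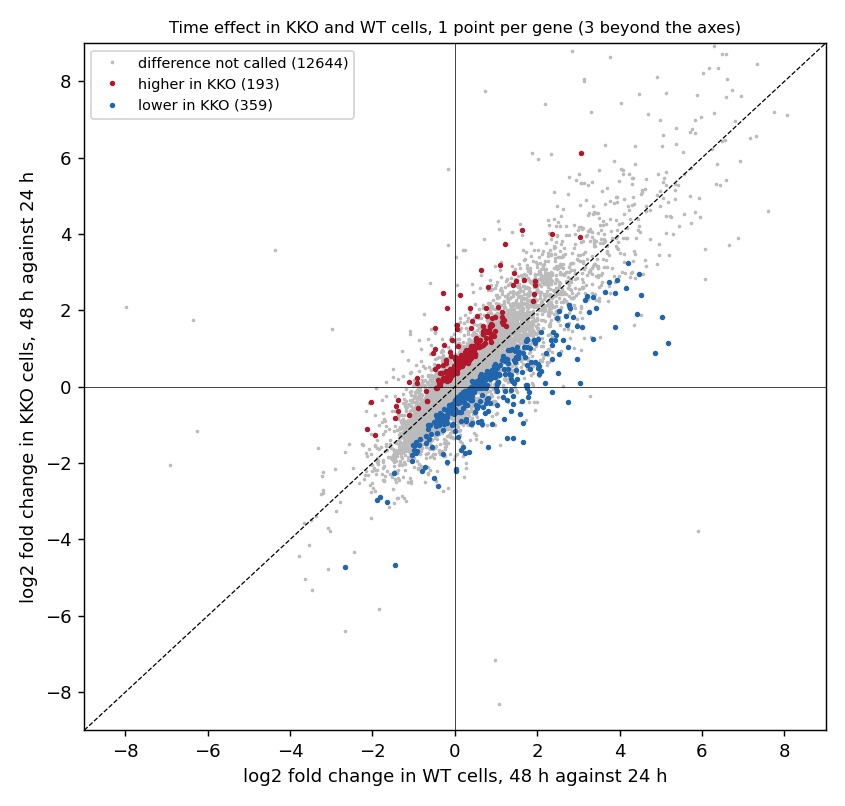
Log2 fold change between 24 and 48 h in KKO cells against that in WT cells, 1 point per tested gene, with equal change on the dashed line and 3 genes beyond the axes. Colour marks the 193 genes whose time effect was higher in KKO cells and the 359 in which it was lower by the test of the difference.

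The difference of the time effects, tested itself as an interaction in the same fit, was called in 552 genes (4.18%), 193 higher (1.46%) and 359 lower (2.72%) in KKO cells. In 204 of them KKO cells moved further in the same direction, in 177 WT cells did, and in 171 the signs were opposite. This count rests on single libraries. It was 54 without the 2 mixed-transcript libraries (10 higher, 44 lower) and 3217 without KKO replicate 2 at 48 h. Leaving out each other library in turn gave 143 (without WT replicate 2 at 48 h) to 828 genes (without WT replicate 3 at 48 h), 1424 were called with the Y-linked share as a covariate, and 931 with the replicate number as a block. Of the 34 named genes with a called difference, 17 kept the call under every alternative at the same threshold, and none changed sign. Many of the 34 were named because they had the smallest p-values in this same test. Their share that kept the call was thus raised by the choice and does not speak for the 552 genes.

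Among these 17 was Srxn1, for which the 2 genotypes moved in opposite directions. It lay at 2.54, 2.86 and 2.71 CPM in WT cells at 24 h and 4.57, 4.55 and 4.32 CPM at 48 h, a rise of 0.72 ± 0.11, against the fall from a much higher level in KKO cells, and the difference was -1.41 ± 0.13 (SE, adjusted p = 0.000148). Klf6, a zinc finger transcription factor gene, rose from 129, 119 and 135 CPM to 165, 194 and 161 CPM in KKO cells and from 87.9, 83.5 and 86.9 CPM to no less than 239 CPM in any library of WT cells, a difference of -1.05 ± 0.10 (SE, adjusted p = 0.000148). Adarb1, of an RNA-editing adenosine deaminase, rose from 59.99, 62.05 and 60.3 CPM to 125, 91.7 and 122 CPM in KKO cells and fell from 84.8, 90.4 and 82.04 CPM to 61.4, 57.5 and 60.2 CPM in WT cells, a difference of 1.42 ± 0.13 (SE, adjusted p = 0.000148). Replicate 2 of KKO lay between the other KKO libraries and WT in both of the latter genes at 48 h.

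Slamf6 fell further in KKO than in WT cells (-2.95 against -1.88), with a difference of -1.07 ± 0.15 (SE, adjusted p = 0.00206). Mapkapk2, of a kinase downstream of p38, rose further in KKO cells, from 161, 143 and 159 CPM to 433, 391 and 423 CPM against 139, 145 and 145 CPM to 250.3, 239 and 254 CPM in WT cells, a difference of 0.64 ± 0.09 (SE, adjusted p = 0.00206). Ripk2, of a kinase of NOD receptor signalling, did so as well (1.96 against 1.14), and Sesn3, a sestrin gene, likewise (1.46 against 0.97). Slc25a30, a mitochondrial carrier gene, rose by 0.79 ± 0.08 in KKO cells and was not called in WT cells (adjusted p = 0.994), with a difference of 0.79 ± 0.11 (SE, adjusted p = 0.00206). Xcl1 fell further in KKO cells (-4.73 against -2.66), with a difference of -2.07 ± 0.47 (SE, adjusted p = 0.0298), but that call was lost without the 2 mixed-transcript libraries (-1.82, adjusted p = 0.186) and on leaving out any of 8 single libraries.

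Interferon-stimulated genes showed the largest share of differences among the 26 lists. In WT cells their median log2 fold change was 2.38, against 0.66 in KKO cells, and the difference was called lower in KKO cells for 27 of 34 genes and higher for none. Irf7 rose from 1.36, 1.39 and 1.75 CPM to 24.1, 38.5 and 34.2 CPM in WT cells, and the difference was -2.53 ± 0.30 (SE, adjusted p = 0.000813). Oasl2 rose from 0.250, 0.308 and 0.214 CPM to 6.58, 11.1 and 10.96 CPM in WT cells and from 0.537, 0.903 and 0.426 CPM to 1.18, 1.30 and 1.67 CPM in KKO cells, a difference of -4.03 ± 0.48 (SE, adjusted p = 0.000813). Its rise in KKO cells was not called without the 2 mixed-transcript libraries (adjusted p = 0.0822). Without the 2 mixed-transcript libraries the difference was called in 7 genes, in 16 when WT replicate 2 of 48 h was left out and in 30 when its KKO counterpart was. Outside the list, and named because their differences were among the 8 smallest p-values in this direction, Parp12 had a difference of -2.28 ± 0.27 (SE, adjusted p = 0.000813), Trim25 of -0.73 ± 0.09 (SE, adjusted p = 0.000813) and Gbp10 of -1.43 ± 0.15 (SE, adjusted p = 0.000317).

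In mitosis genes the difference was called lower in KKO cells for 19 of 25 and higher for none, with a median change of 0.72 in WT cells against 0.31. Ube2c rose from 38.9, 44.5 and 45.9 CPM to 183, 173 and 167 CPM in WT cells, so that every WT library was below every KKO library at 24 h and above at 48 h, and the difference was -0.76 ± 0.12 (SE, adjusted p = 0.00486). Without the 2 mixed-transcript libraries the count was 0, and for Ube2c the value was then -0.70 (adjusted p = 0.0644). The count was 7 when WT replicate 2 of 48 h was left out and 22 when its KKO counterpart was. The difference was also called lower in KKO cells for 9 of 32 genes of the first T-cell receptor response and 7 of 18 chemokine genes. It was so too for 4 of 20 Th1 and cytotoxic genes and 5 of 26 lipid synthesis genes. These counts were 2, 0, 0 and 0 without those 2 libraries. In the T-cell receptor list 2 differences were called higher in KKO cells. The list of IL-10, IL-21, IL-22, MAF and AHR genes had the most called higher of the 26 lists, 3 of 18, and none lower. Replication, ribosome biogenesis, hypoxia and nucleotide lists had no called difference in either direction. Their medians in WT cells were -0.56, -0.76, 1.82 and -0.57 in that order. Their median differences were -0.22, -0.28, 0.30 and -0.27, against -0.01 for all genes. At an unadjusted p under 0.05 in the same test, 13 of 28, 7 of 20, 5 of 17 and 12 of 22 differed, against 2978 of all 13196. The lack of calls thus does not show that these lists moved alike. Glycolysis had 1 called difference, in Pfkm, of 0.69 ± 0.15 (SE, adjusted p = 0.0207), which was not called without the same 2 libraries (0.62, adjusted p = 0.132).

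**Figure D4:**
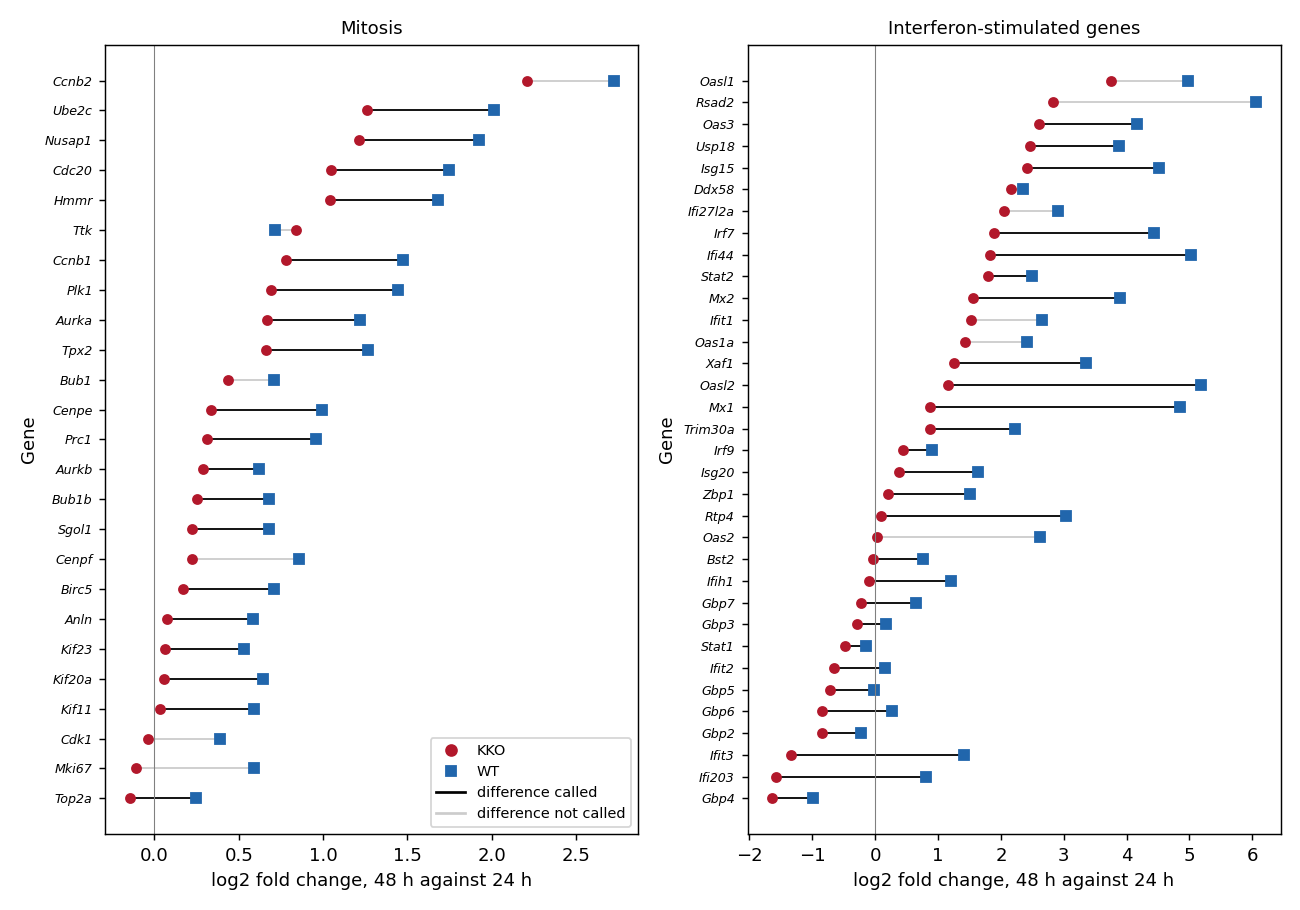
Log2 fold change between 24 and 48 h in KKO cells (circles) and WT cells (squares) for each tested mitosis gene (left) and interferon-stimulated gene (right), with a black line where the difference was called. The WT value lay above the KKO value in every interferon-stimulated gene, and in every mitosis gene except Ttk.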

How the data were processed

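RNA-seq was measured in 12 libraries of 4 groups, and the deposited table holds RSEM expected counts per gene, made by the authors against mouse mm10 per the submitters' processing notes, which name RSEM and FastQC without a version. Of each library's values 10.8 to 12.7% were not whole, and expected counts were rounded to whole numbers. The series text also names a human reference; the gene symbols are those of mouse. Another 6 value columns were not used, and the 1 row named unknown (at most 2 counts in a library) was left out. Of the genes, 27 carry names that a spreadsheet had turned into dates, and none of these is named.

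The 12 libraries were fitted together (8 residual degrees of freedom) with edgeR 4.0.16 in R 4.3.3, using TMM scaling, filterByExpr over the 4 groups, which left 13196 of 32699 genes, and the robust quasi-likelihood F test with Benjamini-Hochberg adjustment at 0.05. Contrasts were 48 minus 24 h in KKO, the same in WT, and KKO minus WT of the 2. SE is the size of the log2 fold change divided by the square root of F. It is calculated back from the test and is unreliable for genes near 0 counts at 24 h. For Tgfb3 it was 0.60 in KKO cells, 0.68 in WT cells and 1.61 for the difference. Folds are ratios of mean CPM, and a group at 0 was set to 3 counts over its libraries; counting intervals are exact at 95%. The scripts were tested on simulated counts. Members and lists were chosen with earlier results of these data known.

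Named genes are Keap1, Nfe2l2 and the given markers; the 15 largest rises and falls among called genes with at least 2 CPM and no overlap of groups, without predicted genes; the 8 smallest p-values in each direction of the difference; up to 4 called members of each list by size; and the 10 most abundant called genes. Other list members were named after their values were seen. Positions come from the GENCODE annotation of GRCm38 and promoter windows from RefSeq, which matched 71.4% of tested symbols. Alternatives covered scaling, tool (DESeq2 1.42.0, limma-voom 3.58.1), filter, threshold, covariates, a replicate block and each library left out.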

Additional observations from a re-analysis of the deposited data

Results flagged for a closer look

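The time effect differed between KKO and WT cells by the test of the difference itself in 34 named genes, each of which is given here as KKO minus WT on the log2 scale. With 3 libraries a group, no formal test for a library far from its group was run. KKO replicate 2 at 48 h, however, often lay nearest to the 24 h level. Without it the count of called differences was 3217, against 552 with it.

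The difference was negative, and kept its call under every alternative at the 0.05 threshold, in Srxn1 (-1.41), Klf6 (-1.05), Gbp10 (-1.43), Plagl1 (-1.35), Oasl2 (-4.03), Parp12 (-2.28), Trim25 (-0.73), Irf7 (-2.53), Slamf6 (-1.07) and Oas3 (-1.56). It was positive, and kept its call in the same way, in Adarb1 (1.42), Mapkapk2 (0.64), St3gal1 (0.73), Slc25a30 (0.79), Irf2bpl (0.88), Ripk2 (0.81) and Sesn3 (0.49).

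In 7 genes the call was lost under 1 alternative, the fit that left out the 2 mixed-transcript libraries. These were Sh3pxd2a (1.03), Ube2c (-0.76), Tnf (-0.77), Scd1 (-1.51), Nusap1 (-0.71), Sntb1 (-1.38) and Suclg1 (0.53), with adjusted p from 0.0585 (Scd1) to 0.0890 (Suclg1) by edgeR in that fit. The differences in that fit were 0.92 for Sh3pxd2a, -0.70 for Ube2c, -0.76 for Tnf, -1.34 for Scd1, -0.67 for Nusap1, -1.45 for Sntb1 and 0.54 for Suclg1, and the fit rests on fewer libraries. The other 10 lost the call under 5 or more alternatives, most often on leaving out 1 library: Cdc20 (-0.70), Usp18 (-1.43), Pfkm (0.69), Fam26f (-2.19), Xcl1 (-2.07), Gzmb (-0.96), Ccl3 (-1.38), Tnfrsf26 (1.33), Neto2 (-1.07) and Ecm1 (2.42). The part of the sex-linked transcripts in these differences was not tested beyond those fits.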

How the results depend on the processing

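The KKO time effect gave 7687 to 9246 called genes under every alternative except the 2-fold limit, which left 2677 (1909 higher, 768 lower). Leaving out 1 library gave 8262 to 9246 (4270 to 4694 higher, 3992 to 4552 lower). Of 155 called named genes 150 kept the call under every alternative at the 0.05 threshold, and none reversed. Most were named for large or abundant called changes in the same fit, so this share was raised by the choice. In WT the 2-fold limit left 2028 genes (1646 higher, 382 lower), and leaving out 1 library gave 7245 to 7855.

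The difference of time effects, 552 genes with 193 higher and 359 lower (35.0% higher), moved most. DESeq2 gave 1039 (453 higher, 586 lower; 43.6% higher), an adjusted p under 0.01 gave 85 (17 and 68), the 2-fold limit 148 (36 and 112), the fit without the 2 mixed-transcript libraries 54 (10 and 44; 18.5%) and the Y-linked share as covariate 1424 (673 and 751; 47.3%). Leaving out 1 library gave 143 to 3217 (37 to 1270 higher, 106 to 1947 lower); the cause was not tested.

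With the replicate block the KKO effect had 8858 called genes and the difference 931 (452 higher; 48.5%). Deviations of same-numbered KKO libraries correlated at 0.0287, 0.0852 and 0.0408, so the numbers were not taken to pair them. Not every library correlated best with its own number (KKO replicate 3 at 24 h with replicate 1 at 48 h, 0.170). Xist also differed within a number, at 76.2 CPM at 24 h and 0.0983 CPM at 48 h in KKO replicate 1. In KKO replicate 3 it was 0.0426 and 105 CPM. A replicate number thus names a library within its time, and the block fit is to be read with this limit. In WT the same correlations were 0.126, 0.103 and 0.343. Depth limits the genes near 0 at 24 h, for which folds are loose.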
